A study of Mus musculus with 12 samples.

Results

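Solute carriers are membrane proteins that move metals, amino acids, sugars, vitamins, nucleosides, ions and lipids across the cell surface or across the membranes of mitochondria, lysosomes and the Golgi. They work as uniporters, as symporters that take a substrate along with sodium or protons, or as exchangers that swap one substrate for another. In dendritic cells and macrophages such carriers are known to withhold metals from engulfed microbes, to carry bacterial peptides out of endolysosomes towards cytosolic sensors, and to supply the amino acids and phosphate that activated cells use. Messenger RNA of this family was followed in mouse bone marrow-derived dendritic cells before and after lipopolysaccharide (LPS), the bacterial cell wall component sensed by Tlr4. The members were all genes with a symbol starting in Slc and a digit, or in Slco, other than the 7 glucose, lactate, arginine and cystine carriers Slc2a1, Slc2a3, Slc2a6, Slc16a1, Slc16a3, Slc7a2 and Slc7a11. Each gene was read from its brightest probe, and it was kept where the scanner software called that probe's Cy5 signal well above background on the 3 arrays of any 1 group. This left 212 of the 343 solute carrier genes on the array, among 11077 genes tested in all.

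Marrow from femur and tibia was depleted of B and T cells with biotinylated antibodies and magnetic beads, then cultured for 5 days in 10 ng/ml GM-CSF and 5 ng/ml IL-4. The 4 groups were unstimulated cells (0 h) and cells given 100 ng/ml LPS for 1, 6 or 24 h, with 3 arrays each, lettered A, B and C and labelled as donors. Strain, age and sex of the mice were not stated. There was no unstimulated culture at the later times, so that time in culture cannot be told apart from LPS in any comparison with them. Every array compared Cy5-labelled sample RNA with one Cy3-labelled pool of mouse RNA, with no dye swap, and each value below is a log2 ratio of sample to that pool. A ratio of 1 probe can be followed over time, while ratios of different genes are not levels per cell.

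The arrays lay on 4 slides, and no slide held unstimulated cells together with cells of 6 or 24 h. Slide 1 held the 3 unstimulated samples and the 1 h sample of donor A. In the fit with slide as a block, every comparison with unstimulated cells therefore rests on that 1 array of 1 h. The later times are reached from it through the 1 h arrays of the other slides. A call against unstimulated cells that this fit keeps or ends thus carries the deviation of that 1 array. The values of this fit are given beside the calls of single carriers against unstimulated cells that it ends. Of the defining markers of conventional dendritic cells, 11 of 12 passed the background filter and Cd209a was above background on no array. Their mean log2 ratio per array was 2.50 to 2.73 in unstimulated cells, 2.79 to 2.93 at 1 h, 2.82 to 3.11 at 6 h and 2.78 to 3.00 at 24 h. Macrophage or monocyte markers, of which 9 of 12 were tested, averaged 0.985 to 1.12 in unstimulated cells and 1.45 to 1.55 at 1 h. At 6 h they averaged 1.19 to 1.32 and at 24 h 0.78 to 0.83. Neutrophil markers, of which 8 of 12 were tested and Elane and Retnlg were above background on no array, averaged 2.83 to 3.25 in unstimulated cells, 1.93 to 2.38 at 1 h, 1.21 to 1.93 at 6 h and 1.02 to 1.80 at 24 h. Genes of dividing cells averaged -0.74 to -0.51 in unstimulated cells, -2.38 to -0.91 at 1 h, -3.04 to -1.60 at 6 h and -3.18 to -2.62 at 24 h, and all 9 tested were lower at 6 h and at 24 h than in unstimulated cells. The part of these shifts in the changes of the carriers was not tested, and in bulk RNA fewer cells of a type and less RNA per cell cannot be told apart.

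Of the 212 members, 173 were well above background on all 12 arrays and 15 in all arrays of only 1 group. Just inside the filter stood Slc26a4, above background on 4 arrays, and just outside it Slc29a4, above background on 8 arrays but not on all 3 of any group. Among the 131 genes not kept, 90 were above background on no array. In unstimulated cells 121 members had a mean log2 ratio above 0 and 91 below 0. The highest were Slc6a13, a GABA and taurine carrier, at 4.50 ± 0.05 (SD, n = 3), Slc52a3, a riboflavin carrier, at 4.42 ± 0.12, the nucleoside carrier Slc28a3 at 3.86 ± 0.12, the vesicular monoamine carrier Slc18a1 at 3.66 ± 0.27 and the neutral amino acid exchanger Slc7a8 at 2.91 ± 0.05. The lowest were the neuronal potassium-chloride cotransporter Slc12a5 at -3.52 ± 0.09, the glutamate carrier Slc1a6 at -3.38 ± 0.20, the mitochondrial iron importer Slc25a37 at -3.27 ± 0.16, the glycine carrier Slc6a9 at -2.92 ± 0.14 and the glutamine carrier Slc38a2 at -2.65 ± 0.06. Slc6a13 and Slc12a5 passed the test in none of the comparisons.

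The promoter windows of the carriers described first are shown here because these genes gave the largest rise at 1 h, the largest rise at 24 h and the largest fall at all 3 times, or because a window held one of the motifs searched. The windows of Slc25a25, Slc25a22 and Slc6a12 were chosen after the matches were seen. Each runs over 300 bases, most of them before an annotated start, from RefSeq on GRCm38.p6, written 5′ to 3′ along the gene, with matches in capitals. Slc20a1 had 2 windows, Slc25a25 and Slc25a22 had 3 each and Slc6a12 had 5. For these genes the window with the most matches is shown, and their other windows held none.
Slc20a1 promoter, chr2:129198523-129198822, plus strand: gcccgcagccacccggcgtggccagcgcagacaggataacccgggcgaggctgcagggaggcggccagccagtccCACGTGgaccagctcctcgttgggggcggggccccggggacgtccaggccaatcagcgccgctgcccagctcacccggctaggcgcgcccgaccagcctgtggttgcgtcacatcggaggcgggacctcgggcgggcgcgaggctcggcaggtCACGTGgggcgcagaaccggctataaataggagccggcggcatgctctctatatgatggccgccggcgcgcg
Slc25a25 promoter, chr2:32424017-32424316, minus strand: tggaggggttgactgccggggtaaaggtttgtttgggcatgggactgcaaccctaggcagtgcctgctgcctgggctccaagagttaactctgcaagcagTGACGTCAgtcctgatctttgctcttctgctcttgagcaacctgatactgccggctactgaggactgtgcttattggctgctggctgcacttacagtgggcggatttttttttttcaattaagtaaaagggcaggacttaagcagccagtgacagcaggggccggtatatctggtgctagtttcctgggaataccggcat
Slc46a3 promoter, chr5:147894766-147895065, minus strand: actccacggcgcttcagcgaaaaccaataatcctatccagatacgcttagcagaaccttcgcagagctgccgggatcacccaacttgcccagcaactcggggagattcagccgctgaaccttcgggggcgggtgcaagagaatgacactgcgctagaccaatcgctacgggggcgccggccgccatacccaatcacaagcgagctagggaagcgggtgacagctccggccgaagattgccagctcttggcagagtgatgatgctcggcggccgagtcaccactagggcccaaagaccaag
Slc22a4 promoter, chr11:54028055-54028354, minus strand: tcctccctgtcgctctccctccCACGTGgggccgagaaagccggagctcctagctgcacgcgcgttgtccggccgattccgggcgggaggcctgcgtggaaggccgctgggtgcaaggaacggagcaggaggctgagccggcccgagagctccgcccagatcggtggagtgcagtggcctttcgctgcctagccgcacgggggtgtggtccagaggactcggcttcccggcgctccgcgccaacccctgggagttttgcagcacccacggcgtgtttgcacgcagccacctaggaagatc
Slc25a22 promoter, chr7:141435326-141435625, minus strand: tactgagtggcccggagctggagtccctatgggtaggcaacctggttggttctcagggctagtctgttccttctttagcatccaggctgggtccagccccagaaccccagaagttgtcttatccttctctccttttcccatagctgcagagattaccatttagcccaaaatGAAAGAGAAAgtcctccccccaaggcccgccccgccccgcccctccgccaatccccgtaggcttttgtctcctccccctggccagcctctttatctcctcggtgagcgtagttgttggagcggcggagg
Slc6a12 promoter, chr6:121342324-121342623, plus strand: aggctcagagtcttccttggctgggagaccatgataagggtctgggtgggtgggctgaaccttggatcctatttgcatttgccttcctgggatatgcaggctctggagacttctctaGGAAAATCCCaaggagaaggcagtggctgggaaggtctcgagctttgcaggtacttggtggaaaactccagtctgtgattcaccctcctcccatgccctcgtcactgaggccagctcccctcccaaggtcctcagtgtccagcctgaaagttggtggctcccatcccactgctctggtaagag
The motifs, searched on both strands, were the E-box CACGTG, the cyclic AMP response element TGACGTCA, the amino acid response form TGATGCAA, and 1 form each, of 10 letters, of the interferon-stimulated response element core and the kB site. No 2 matches in the printed windows overlap. Slc20a1 held the E-box at positions -175 and -22, counted from the start, and Slc22a4 held it once, at -228. Slc25a25 held TGACGTCA at -150. In Slc25a22 the interferon element core lay at -79, and in Slc6a12 the kB site form lay on the opposite strand at -133. The window of Slc46a3 held none of the 5. Over 216 windows of 157 members, CACGTG stood in 28 windows (13%), against 7.15% of all 32851 promoter windows. TGACGTCA stood in 0.926% of members' windows, against 1.79% of all windows, and the interferon element core in 1.39%, against 3.44%. The kB site form stood in 1.39%, against 0.411%, and TGATGCAA in 1.85%, against 0.895%. These are counts of letters in a window and were not tested. Slco3a1 had no entry.

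LPS for 1 h, compared with unstimulated cells, changed few carriers. A phosphate importer, a calcium-regulated mitochondrial nucleotide carrier and the heavy chain of the amino acid exchangers rose, and a lysosomal carrier fell. In all, 8 of 212 members (3.77%) passed the adjusted p threshold of 0.05 in limma's moderated test, 4 higher and 4 lower, against 7.5% of all genes tested, of which 4.09% were higher and 3.41% lower. Another 5 passed when donor was entered as a block, which gave 13, beside 10.2% of all genes. The fit with slide as a block sets only the 1 h array of donor A against the unstimulated arrays. Its result at 1 h is therefore no check over the 3 arrays of 1 h. When slide was the block 3 remained, which were Slc20a1, Slc25a25 and Slc3a2, beside 2.02% of all genes. Without the 1 h array of donor A or B the count was 3 or 4, and without the unstimulated array of donor A or B it was 5 or 2.

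Slc20a1, the sodium-phosphate cotransporter PiT-1, had log2 ratios of -0.99, -0.72 and -1.36 in unstimulated cells, 0.31, 1.10 and 0.56 at 1 h, -1.43, -1.39 and -1.01 at 6 h and -0.997, -0.55 and -0.62 at 24 h in donors A, B and C. All 3 arrays of 1 h stood above all 9 others. The rise at 1 h was 3.2-fold (log2 1.68 ± 0.22, SE, adjusted p = 0.000468), and in the slide-blocked fit it was 1.33 with adjusted p = 0.016. At 6 h it stood 3.81-fold below 1 h (adjusted p = 4e-05), and neither 6 h nor 24 h differed from unstimulated cells past the threshold (adjusted p = 0.405 and 0.304). A second, dimmer probe of the gene gave 0.49 at 1 h with adjusted p = 0.179. Slc25a25, which exchanges ATP-magnesium for phosphate across the inner mitochondrial membrane and is switched by calcium, had log2 ratios of 0.66, 0.60 and 0.49 in unstimulated cells, 1.80, 2.96 and 1.98 at 1 h, 1.04, 1.24 and 0.98 at 6 h and 0.77, 0.97 and 0.72 at 24 h. The 1 h arrays were again the 3 highest of the 12. It rose 3.17-fold at 1 h (log2 1.66 ± 0.23, adjusted p = 0.000727) and was 2.23-fold lower at 6 h than at 1 h (adjusted p = 0.00257).

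Slc3a2, the CD98 heavy chain that brings LAT1 and related light chains to the cell surface, had log2 ratios of -1.36, -1.65 and -1.39 in unstimulated cells, -0.40, -0.44 and -0.99 at 1 h, -0.37, -0.83 and -0.70 at 6 h and -0.48, -0.08 and -0.27 at 24 h. Every LPS array lay above every unstimulated array. It was 1.81-fold higher at 1 h (log2 0.86 ± 0.18, adjusted p = 0.0127), 1.78-fold higher at 6 h (adjusted p = 0.00268) and 2.28-fold higher at 24 h (adjusted p = 0.000247), and it kept all 3 calls with slide as a block. The 1 h call was lost without donor B of the unstimulated cells or without donor A or B of 1 h. The other member that rose at 1 h was Slc49a4, a lysosomal membrane carrier (log2 0.60 ± 0.13, adjusted p = 0.0165, and 0.137 with slide as a block), which stayed higher at 6 h (0.82 ± 0.13, adjusted p = 0.000349).

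Slc46a3, a lysosomal membrane carrier, had log2 ratios of 1.09, 1.04 and 0.94 in unstimulated cells, 0.31, -0.88 and 0.36 at 1 h, -1.44, -1.87 and -1.19 at 6 h and -1.37, -1.55 and -1.33 at 24 h. The 1 h arrays spread from -0.88 to 0.36, below all unstimulated arrays, and the arrays of 6 and 24 h were lower still. The fall was 2.14-fold at 1 h (log2 -1.10 ± 0.27, adjusted p = 0.0309), 5.76-fold at 6 h (-2.53 ± 0.27, adjusted p = 1.91e-05) and 5.42-fold at 24 h (-2.44 ± 0.27, adjusted p = 3.15e-05). In the slide-blocked fit the 1 h change was -0.72 with adjusted p = 0.296, while the later falls kept their calls. The other 3 falls at 1 h were those of the organic anion carrier Slco3a1, of Slc35g1, an endoplasmic reticulum membrane protein of the nucleotide sugar carrier family, and of the sulphate carrier Slc26a11, with log2 changes of -0.94 ± 0.26, -0.85 ± 0.24 and -0.57 ± 0.15. Their adjusted p values were 0.0446, 0.0459 and 0.0363, and 0.173, 0.182 and 0.349 with slide as a block. Leaving out single arrays ended each of these calls in turn, among them donor A or B of 1 h for all 3.

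**Figure D1:**
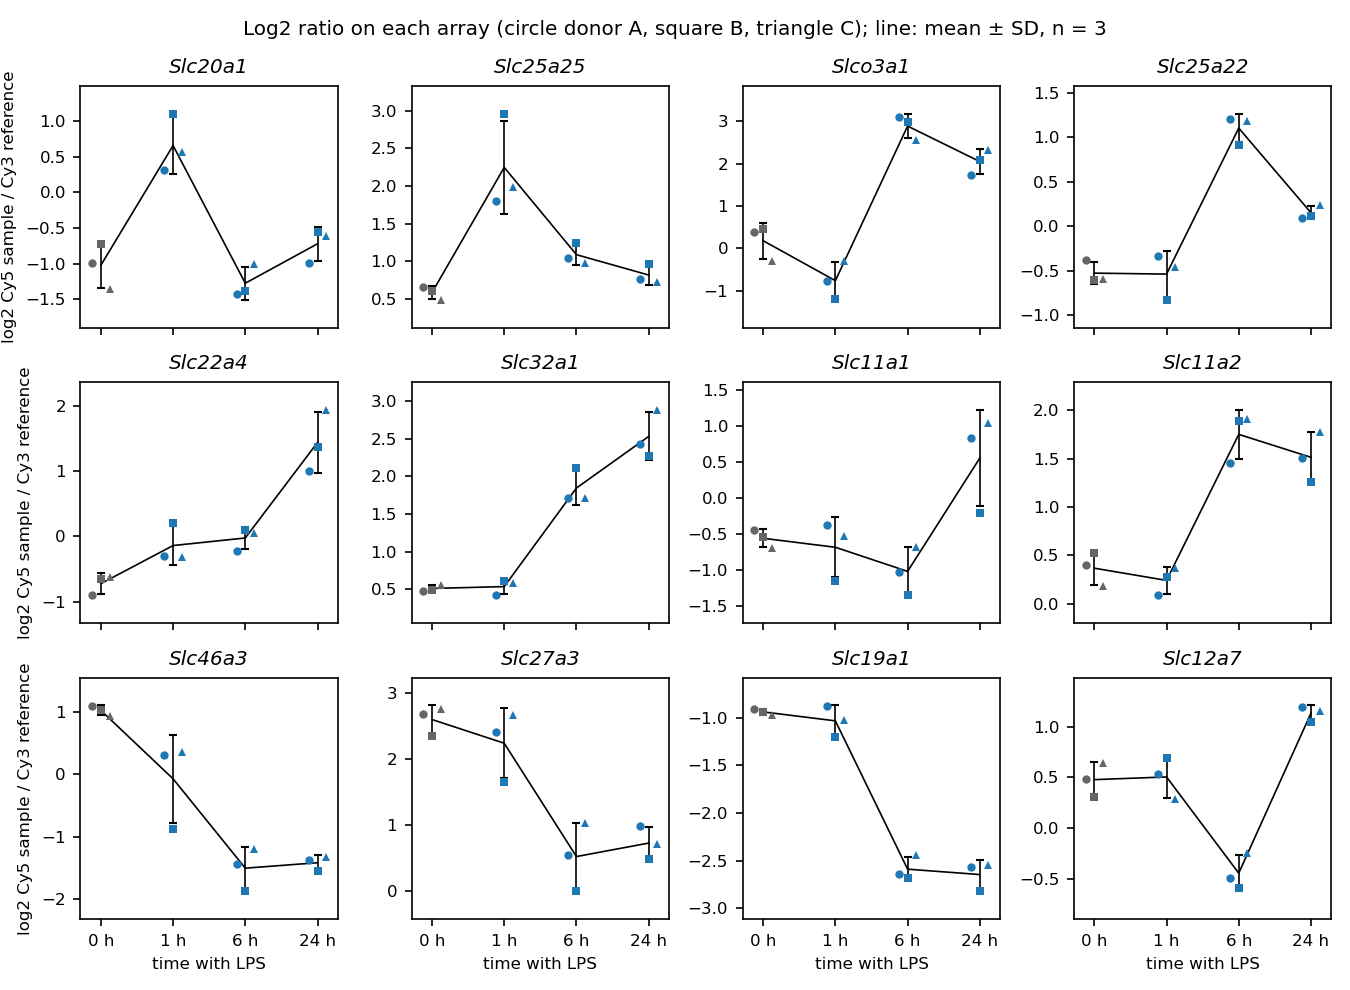
Log2 ratio of sample to reference pool on each of the 12 arrays (vertical axis) against time with LPS (horizontal axis, 0 h in grey and LPS in blue) for 12 carriers, with circles, squares and triangles for donors A, B and C and a line through the means with SD (n = 3). Slc20a1 and Slc25a25 peak at 1 h, Slco3a1 and Slc25a22 at 6 h, Slc22a4 and Slc32a1 at 24 h, and Slc46a3, Slc27a3 and Slc19a1 are low at 6 and 24 h.

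At 6 h, 87 of 212 members (41%) differed from unstimulated cells, 31 higher and 56 lower, against 39.7% of all genes tested, of which 16.1% were higher and 23.6% lower. At 24 h, 76 members (35.8%) differed, 39 higher and 37 lower, against 39.4% of all genes, of which 18% were higher and 21.5% lower. The share of carriers called was close to that of all genes at both times. The median log2 change of the members was -0.05 at 6 h and 0.09 at 24 h, beside -0.04 and 0.02 over all genes. Changes of at least 2-fold that passed the test were seen for 8 members upward and 18 downward at 6 h, and for 9 upward and 13 downward at 24 h. Over all genes the shares past the same limits were 6.09% upward and 5.77% downward at 6 h, and 5.46% and 6.56% at 24 h. With each array centred on its median in place of loess, 21 members were higher and 17 lower at 6 h and 12 higher and 24 lower at 24 h, beside 12.3% and 5.95% of all genes at 6 h and 7.51% and 13.5% at 24 h. That centring put the median log2 change of all genes at -0.12 at 1 h and -0.11 at 24 h, beside 0.02 at both times with loess. With slide as a block 14 were higher and 29 lower at 6 h, and 14 higher and 17 lower at 24 h, where 8.56% and 9.05% of all genes were higher and lower at 6 h, and 7.65% and 8.22% at 24 h. In the fit without a block, 101 of the 212 members passed in none of the 3 comparisons with unstimulated cells. The same share over all genes was not counted. The shares of all genes given here, with loess and with median centring, also stand beside the counts of the classes below.

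**Figure D2:**
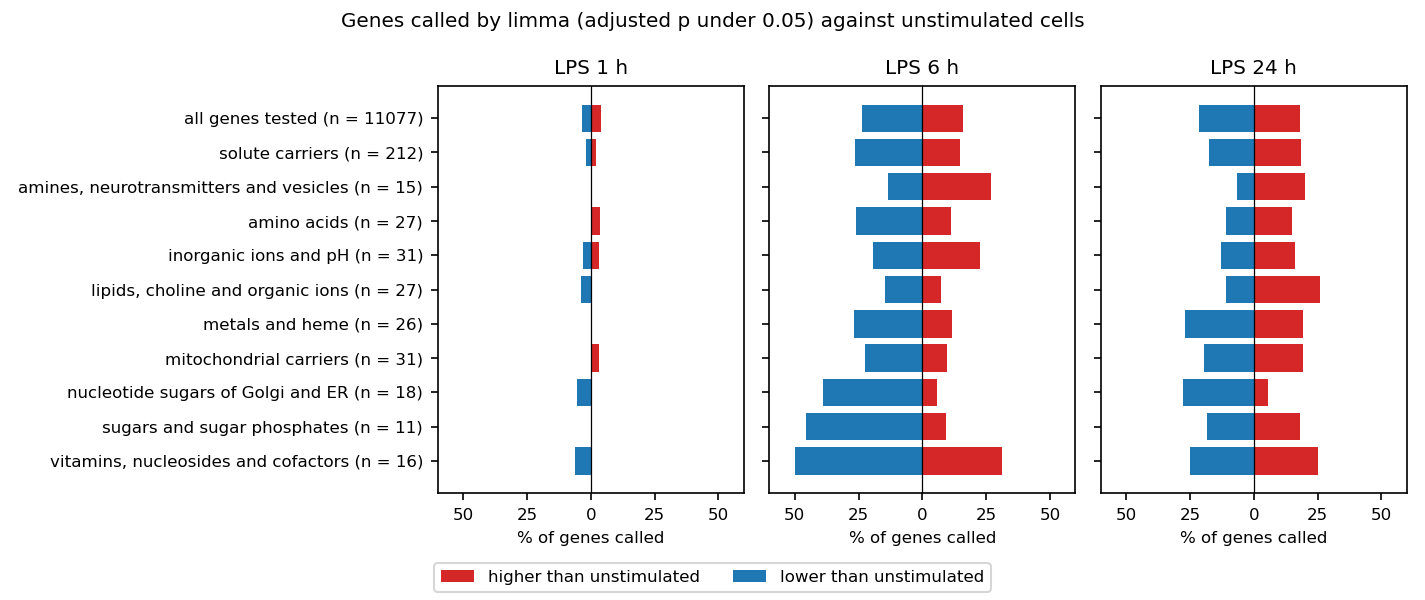
Share of genes called higher (red, to the right) and lower (blue, to the left) than unstimulated cells at 1, 6 and 24 h, in % of the genes of each row, for all genes tested, the 212 solute carriers and the 9 substrate classes with more than 5 members. At 6 h all classes drawn except those of inorganic ions and of amines have more lower than higher calls, as have all genes tested. With median centring 12.3% of all genes are higher and 5.95% lower at 6 h, and the vitamin class has 3 higher and 2 lower. At 24 h the class of lipids, choline and organic ions has 7 higher and 3 lower calls. These were 2 and 3 with median centring and 3 and 3 with slide as a block.

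Carriers of lipids, choline and organic ions held the largest rise against unstimulated cells at 6 h and at 24 h, and some of the largest falls. The median log2 changes of the 27 members were 0.08 at 6 h and 0.18 at 24 h. Of these members, 2 (7.41%) rose and 4 (14.8%) fell at 6 h, beside 16.1% and 23.6% of all genes. At 24 h, beside 18% and 21.5% of all genes, 7 (25.9%) rose and 3 (11.1%) fell. With median centring these were 1 and 2 at 6 h, and 2 and 3 at 24 h, and with slide as a block they were 1 and 4, and 3 and 3, with medians of -0.15 and -0.08. Slco3a1, an organic anion polypeptide that carries prostaglandins and thyroxine, had log2 ratios of 0.40, 0.45 and -0.30 in unstimulated cells, -0.77, -1.20 and -0.31 at 1 h, 3.11, 2.99 and 2.56 at 6 h and 1.74, 2.08 and 2.34 at 24 h. At 1 h the array of donor C (-0.31) was level with the lowest unstimulated array (-0.30), and those of donors A and B were lower. All arrays of 6 and 24 h lay above all others. It was 6.53-fold higher at 6 h (log2 2.71 ± 0.26, adjusted p = 6.64e-06) and 3.65-fold higher at 24 h (1.87 ± 0.26, adjusted p = 0.000132) than in unstimulated cells, and 12.5-fold higher at 6 h than at 1 h (adjusted p = 7.16e-07). These calls held with slide as a block, at log2 changes of 2.54, 2.15 and 3.49.

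Slc22a4, the carrier OCTN1 known for ergothioneine, had log2 ratios of -0.90, -0.65 and -0.61 in unstimulated cells, -0.31, 0.21 and -0.32 at 1 h, -0.22, 0.10 and 0.05 at 6 h and 1.01, 1.37 and 1.94 at 24 h. The 3 arrays of 24 h were the highest. It rose 4.48-fold at 24 h (log2 2.16 ± 0.22, adjusted p = 1.43e-05) and was 2.76-fold higher at 24 h than at 6 h (adjusted p = 0.000771), while its 6 h rise of 0.70 ± 0.22 had adjusted p = 0.0209, and 0.445 with slide as a block.

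In the same class Slc27a3, a member of the fatty acid transport protein family with acyl-CoA synthetase activity, had log2 ratios of 2.69, 2.36 and 2.76 in unstimulated cells, 2.41, 1.65 and 2.67 at 1 h, 0.55, 0.00 and 1.03 at 6 h and 0.98, 0.49 and 0.72 at 24 h. Arrays of 6 and 24 h all lay below those of 0 and 1 h. It fell 4.22-fold at 6 h (log2 -2.08 ± 0.28, adjusted p = 1e-04) and 3.67-fold at 24 h (-1.87 ± 0.28, adjusted p = 0.000218). The organic anion carrier Slco2b1 was well above background on all 3 arrays of unstimulated cells and of 1 h, on none at 6 h and on 1 at 24 h. The Cy5 signal alone was at least 2.85-fold lower at 6 h than in unstimulated cells, with the value at 6 h a floor from signals near background, and the log2 ratio changed by -1.46 ± 0.15 (adjusted p = 9.63e-06). That floor is on the scale of the Cy5 channel and can lie past the fold of the ratios. Slco4a1, which carries thyroid hormone and other organic anions, had log2 ratios of 2.14, 2.20 and 2.23 in unstimulated cells, 3.05, 2.60 and 3.59 at 1 h, -0.10, 0.24 and 1.54 at 6 h and 2.27, 1.77 and 2.55 at 24 h. It was 3.09-fold lower at 6 h than in unstimulated cells (log2 -1.63 ± 0.36, adjusted p = 0.00318), and at 24 h it stood 3.11-fold above 6 h (adjusted p = 0.00845) and 0.01 from unstimulated cells (adjusted p = 0.987). Its 1 h difference of 0.89 ± 0.36 had adjusted p = 0.151, and 0.0476 with donor as a block.

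Carriers of metals and heme set the iron, zinc, copper and magnesium of the cell. Of 26 members, 3 (11.5%) rose and 7 (26.9%) fell at 6 h, beside 16.1% and 23.6% of all genes. At 24 h, beside 18% and 21.5% of all genes, 5 (19.2%) rose and 7 (26.9%) fell. With median centring 3 rose and 0 fell at 6 h, and 3 rose and 3 fell at 24 h. The 3 that rose at 6 h were Slc11a2 and the copper carriers Slc31a1 and Slc31a2. Slc11a2, the iron importer DMT1, had log2 ratios of 0.40, 0.52 and 0.18 in unstimulated cells, 0.09, 0.27 and 0.37 at 1 h, 1.46, 1.89 and 1.90 at 6 h and 1.503, 1.26 and 1.78 at 24 h. The groups of 6 and 24 h did not overlap with those of 0 and 1 h, and the gene rose 2.6-fold at 6 h (log2 1.38 ± 0.17, adjusted p = 4.21e-05) and 2.21-fold at 24 h (1.14 ± 0.17, adjusted p = 0.000184, and 0.115 with slide as a block).

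Slc11a1, or Nramp1, pumps iron and manganese out of the phagosome and is known as a gene of resistance to intracellular bacteria. Its log2 ratios were -0.44, -0.55 and -0.69 in unstimulated cells, -0.37, -1.15 and -0.53 at 1 h, -1.04, -1.35 and -0.68 at 6 h and 0.83, -0.21 and 1.04 at 24 h. At 24 h donors A and C were the 2 highest of the 12 arrays and donor B stood only just above the unstimulated arrays. It rose 2.16-fold at 24 h (log2 1.11 ± 0.30, adjusted p = 0.00943, and 1.14 in the slide-blocked fit, adjusted p = 0.0142) and was 2.97-fold higher at 24 h than at 6 h (adjusted p = 0.0034). Slc48a1, which brings heme from endolysosomes to the cytosol, was likewise 2.36-fold higher at 24 h than at 6 h (adjusted p = 0.00247), after a fall at 6 h of 1.69-fold (adjusted p = 0.0157, and 0.0699 with slide as a block). A second probe of Slc48a1 gave a log2 change of -0.06 at 6 h. Slc40a1, the iron exporter ferroportin, had changes of 0.44 ± 0.32 at 6 h and 0.64 ± 0.32 at 24 h (adjusted p = 0.314 and 0.14), with unstimulated arrays from -1.78 to -0.94 and overlapping groups.

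The copper importer Slc31a1 had log2 ratios of 1.48, 1.52 and 1.28 in unstimulated cells, 1.45, 1.32 and 1.53 at 1 h, 2.37, 2.47 and 2.40 at 6 h and 1.97, 2.32 and 2.89 at 24 h. It rose 1.98-fold at 6 h (log2 0.99 ± 0.18, adjusted p = 0.00105) and 1.95-fold at 24 h (adjusted p = 0.00123), or adjusted p = 0.114 and 0.109 in the slide-blocked fit. Slc31a2, a relative that acts on vesicular copper, changed by 0.57 ± 0.17 at 6 h and 0.74 ± 0.17 at 24 h (adjusted p = 0.0164 and 0.0039, and 0.145 and 0.0598 with slide as a block). Its second, dimmer probe gave 1.55 and 1.504. Among zinc carriers the importer Slc39a10 fell at both times, by 0.75 and 1.14 on the log2 scale (SE 0.16, adjusted p = 0.00207 and 0.000126, and 0.24 and 0.0745 with slide as a block). The importer Slc39a14, which also carries iron, rose at 24 h (0.49 ± 0.13, adjusted p = 0.0104, and 0.175 in the slide-blocked fit), and the vesicular zinc carrier Slc30a4 fell at 24 h (-0.57 ± 0.16, adjusted p = 0.0143, and 0.562 in the slide-blocked fit). Slc39a8, Slc30a1 and the magnesium carrier Slc41a1 did not pass at 6 or 24 h.

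**Figure D3:**
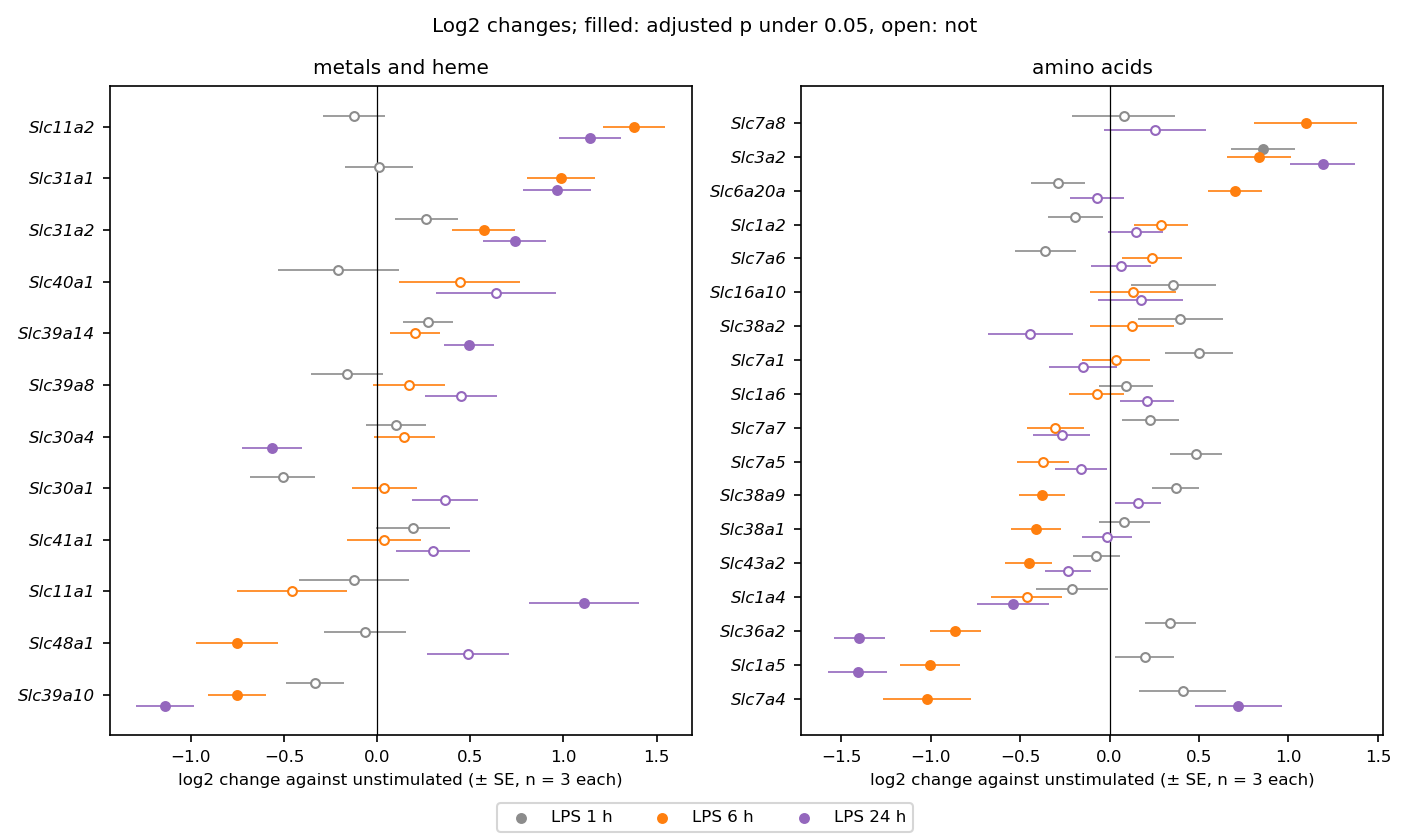
Log2 change against unstimulated cells with its SE (horizontal axis) for the named carriers of metals and heme (left) and of amino acids (right), with 1 h in grey, 6 h in orange and 24 h in purple, and filled points for adjusted p under 0.05. Slc11a2 and the copper carriers lie to the right at 6 and 24 h, Slc3a2 is the one amino acid carrier filled at all 3 times, and Slc1a5 and Slc36a2 lie to the left at 6 and 24 h.

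Amino acid carriers moved in both directions. Of 27 members, 3 (11.1%) rose and 7 (25.9%) fell at 6 h, beside 16.1% and 23.6% of all genes. At 24 h, beside 18% and 21.5% of all genes, 4 (14.8%) rose and 3 (11.1%) fell. With median centring these were 2 and 2 at 6 h, and 2 and 4 at 24 h. Of the light chains Slc7a5, Slc7a6, Slc7a7 and Slc7a8, which pair with Slc3a2, Slc7a8 alone passed against unstimulated cells in the fit without a block. Slc7a5, the light chain LAT1, had log2 ratios of -1.70, -1.74 and -1.60 in unstimulated cells, -1.02, -1.07 and -1.49 at 1 h, -1.90, -2.14 and -2.12 at 6 h and -1.76, -1.71 and -2.05 at 24 h, changed by 0.49 ± 0.14 at 1 h (adjusted p = 0.0619, and 0.0403 with donor as a block), and was 1.81-fold lower at 6 h than at 1 h (adjusted p = 0.000863). Slc7a8, the light chain LAT2, had log2 ratios of 2.87, 2.96 and 2.90 in unstimulated cells, 3.12, 2.64 and 3.19 at 1 h, 4.08, 3.95 and 3.97 at 6 h and 2.51, 2.96 and 4.02 at 24 h. All 3 arrays of 6 h were above those of 0 and 1 h, and at 24 h donor C was as high as at 6 h while donors A and B were not. It rose 2.14-fold at 6 h (log2 1.10 ± 0.29, adjusted p = 0.00854, and 0.202 with slide as a block). The light chains Slc7a6 and Slc7a7 changed by 0.24 ± 0.17 and -0.30 ± 0.16 at 6 h (adjusted p = 0.299 and 0.155).

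Slc1a5, the glutamine importer ASCT2, had log2 ratios of -0.14, -0.28 and -0.21 in unstimulated cells, 0.04, 0.02 and -0.10 at 1 h, -1.21, -1.26 and -1.18 at 6 h and -1.19, -1.66 and -2.01 at 24 h. The arrays of 6 and 24 h all lay below those of 0 and 1 h. It was 2.01-fold lower at 6 h (log2 -1.004 ± 0.17, adjusted p = 0.000455) and 2.65-fold lower at 24 h (-1.41 ± 0.17, adjusted p = 4.25e-05), and with slide as a block the changes were -0.92 (adjusted p = 0.0899) and -1.38 (adjusted p = 0.0256). Slc36a2, a proton-coupled carrier of glycine and proline, was well above background on all arrays up to 6 h and on none at 24 h, where its Cy5 signal was at least 2.79-fold lower than in unstimulated cells and its log2 ratio changed by -1.40 ± 0.14 (adjusted p = 1.66e-05). At 6 h its fall was 1.82-fold (adjusted p = 0.000459). Slc38a9, the lysosomal arginine sensor of the mTORC1 pathway, fell at 6 h (-0.38 ± 0.13, adjusted p = 0.035, and 0.127 with slide as a block). The arginine carrier Slc7a1 and the glutamine carrier Slc38a2 changed by 0.04 ± 0.19 and 0.13 ± 0.24 at 6 h, both short of the threshold.

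Slc7a4, a relative of the cationic amino acid carriers whose substrate is not settled, fell at 6 h and was high again at 24 h. Its log2 ratios were 1.19, 1.11 and 1.49 in unstimulated cells, 1.91, 1.66 and 1.44 at 1 h, 0.01, 0.09 and 0.61 at 6 h and 2.41, 1.38 and 2.15 at 24 h. It was 2.03-fold lower at 6 h than in unstimulated cells (log2 -1.02 ± 0.24, adjusted p = 0.00509) and 3.34-fold higher at 24 h than at 6 h (1.74 ± 0.24, adjusted p = 0.000538), with its 24 h arrays reaching 0.72 above unstimulated cells (adjusted p = 0.0329, and 0.183 with slide as a block).

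Mitochondrial carriers of family 25 exchange metabolites, nucleotides and cofactors across the inner membrane. Of 31 members, 3 (9.68%) rose and 7 (22.6%) fell at 6 h, beside 16.1% and 23.6% of all genes. At 24 h, beside 18% and 21.5% of all genes, 6 (19.4%) rose and 6 (19.4%) fell. With median centring 1 rose and 0 fell at 6 h, and 0 rose and 4 fell at 24 h. Slc25a22, a glutamate carrier, had log2 ratios of -0.38, -0.61 and -0.59 in unstimulated cells, -0.33, -0.82 and -0.46 at 1 h, 1.21, 0.92 and 1.18 at 6 h and 0.10, 0.12 and 0.24 at 24 h. The groups of 6 h and 24 h stood apart from each other and from those of 0 and 1 h. It rose 3.09-fold at 6 h (log2 1.63 ± 0.14, adjusted p = 3.09e-06) and 1.6-fold at 24 h (0.68 ± 0.14, adjusted p = 0.00227), with 1.85 and 0.96 with slide as a block, and was 1.93-fold lower at 24 h than at 6 h (adjusted p = 0.000803). Slc25a1, the citrate exporter that feeds cytosolic acetyl-CoA, had log2 ratios of -0.78, -1.10 and -0.64 in unstimulated cells, -0.23, -0.89 and -0.15 at 1 h, 0.15, -0.20 and 0.21 at 6 h and -0.17, -0.21 and 0.12 at 24 h. It rose 1.86-fold at 6 h (log2 0.89 ± 0.20, adjusted p = 0.0034) and 1.69-fold at 24 h (adjusted p = 0.00929), or 0.072 and 0.082 in the slide-blocked fit.

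Of the falling mitochondrial carriers, Slc25a24, another calcium-regulated ATP-magnesium carrier, was 2.16-fold lower at 6 h (log2 -1.11 ± 0.23, adjusted p = 0.00236) and 2.31-fold lower at 24 h (-1.21 ± 0.23, adjusted p = 0.0014). Its relative Slc25a25 had been higher at 1 h. The oxoglutarate carrier Slc25a11 fell at 6 h (-0.72 ± 0.14, adjusted p = 0.00135). The adenine nucleotide translocator Slc25a5 fell at 24 h (-1.002 ± 0.23, adjusted p = 0.00383, and 0.218 with slide as a block), while its relative Slc25a4 changed by -0.10 ± 0.14 (adjusted p = 0.62). Of the 2 mitochondrial iron importers, Slc25a37 changed by 0.70 ± 0.22 at 24 h (adjusted p = 0.0232) but by -0.05 in the slide-blocked fit (adjusted p = 0.937), and Slc25a28 by 0.04 ± 0.14 (adjusted p = 0.856).

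Vitamin, nucleoside and cofactor carriers had the highest share of calls at 6 h among the 9 larger classes, with 5 of 16 higher and 8 lower. That share was 81.2%, against 39.7% of all genes tested. At 24 h, beside 18% and 21.5% of all genes, 4 (25%) were higher and 4 (25%) lower. With median centring these were 3 and 2 at 6 h, and 1 and 3 at 24 h. The class then no longer ranked first at 6 h, where 4 of 15 carriers of amines were higher and 2 lower. Slc19a1, the reduced folate carrier, which in human cells also imports cyclic dinucleotides, had log2 ratios of -0.90, -0.94 and -0.97 in unstimulated cells, -0.87, -1.20 and -1.03 at 1 h, -2.64, -2.68 and -2.44 at 6 h and -2.57, -2.82 and -2.55 at 24 h. The arrays of 6 and 24 h all lay more than 1 log2 unit below the others. It fell 3.14-fold at 6 h (log2 -1.65 ± 0.12, adjusted p = 8.64e-07) and 3.26-fold at 24 h (-1.71 ± 0.12, adjusted p = 1.18e-06), and kept both calls with slide as a block. Its second probe, which was much dimmer, gave -0.04 and 0.03. The thiamine carrier Slc19a2 had log2 ratios of -0.26, 0.06 and -0.31 in unstimulated cells, -0.63, -0.46 and -0.60 at 1 h, -1.37, -0.96 and -1.36 at 6 h and -0.08, -0.61 and 0.27 at 24 h. It fell 2.08-fold at 6 h (adjusted p = 0.00115) and was 2.13-fold higher at 24 h than at 6 h (adjusted p = 0.00299). The proton-coupled folate carrier Slc46a1 changed by -0.40 ± 0.13 at 6 h and 0.38 ± 0.13 at 24 h (adjusted p = 0.0286 and 0.0358), and by -0.73 and -0.06 in the slide-blocked fit (adjusted p = 0.0451 and 0.882). The riboflavin carrier Slc52a3 fell at 6 h (-0.90 ± 0.18, adjusted p = 0.00162).

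Of the nucleobase and nucleoside carriers of this class, Slc43a3, a purine nucleobase carrier, had log2 ratios of -1.23, -1.25 and -1.38 in unstimulated cells, -0.77, -0.55 and -1.17 at 1 h, -0.13, 0.02 and -0.51 at 6 h and -0.59, -0.25 and -1.09 at 24 h. All arrays with LPS were above the unstimulated ones, and it rose 2.11-fold at 6 h (log2 1.08 ± 0.21, adjusted p = 0.0016) and 1.56-fold at 24 h (adjusted p = 0.0307). The sodium-coupled nucleoside carrier Slc28a2 was above background on 1 array each of 0 and 1 h and on all of 6 and 24 h, through which alone it passed the filter, so that its lower values are near background. Its log2 ratio changed by 0.73 ± 0.23 and 0.87 ± 0.23 (adjusted p = 0.0246 and 0.00978, and 0.488 and 0.307 with slide as a block). Slc28a3 changed by 0.69 ± 0.34 at 6 h (adjusted p = 0.131, and 0.048 with donor as a block). The equilibrative carrier Slc29a1 fell by 0.42 and 0.49 on the log2 scale (adjusted p = 0.046 and 0.0222, 0.414 and 0.29 with slide as a block, and 0.0545 at 6 h with donor as a block), and its lysosomal relative Slc29a3 did not pass in any comparison. Slc33a1, which brings acetyl-CoA into the endoplasmic reticulum, rose at both times (0.72 ± 0.16 and 0.60 ± 0.16, adjusted p = 0.00401 and 0.0116, the second being 0.143 in the slide-blocked fit).

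**Figure D4:**
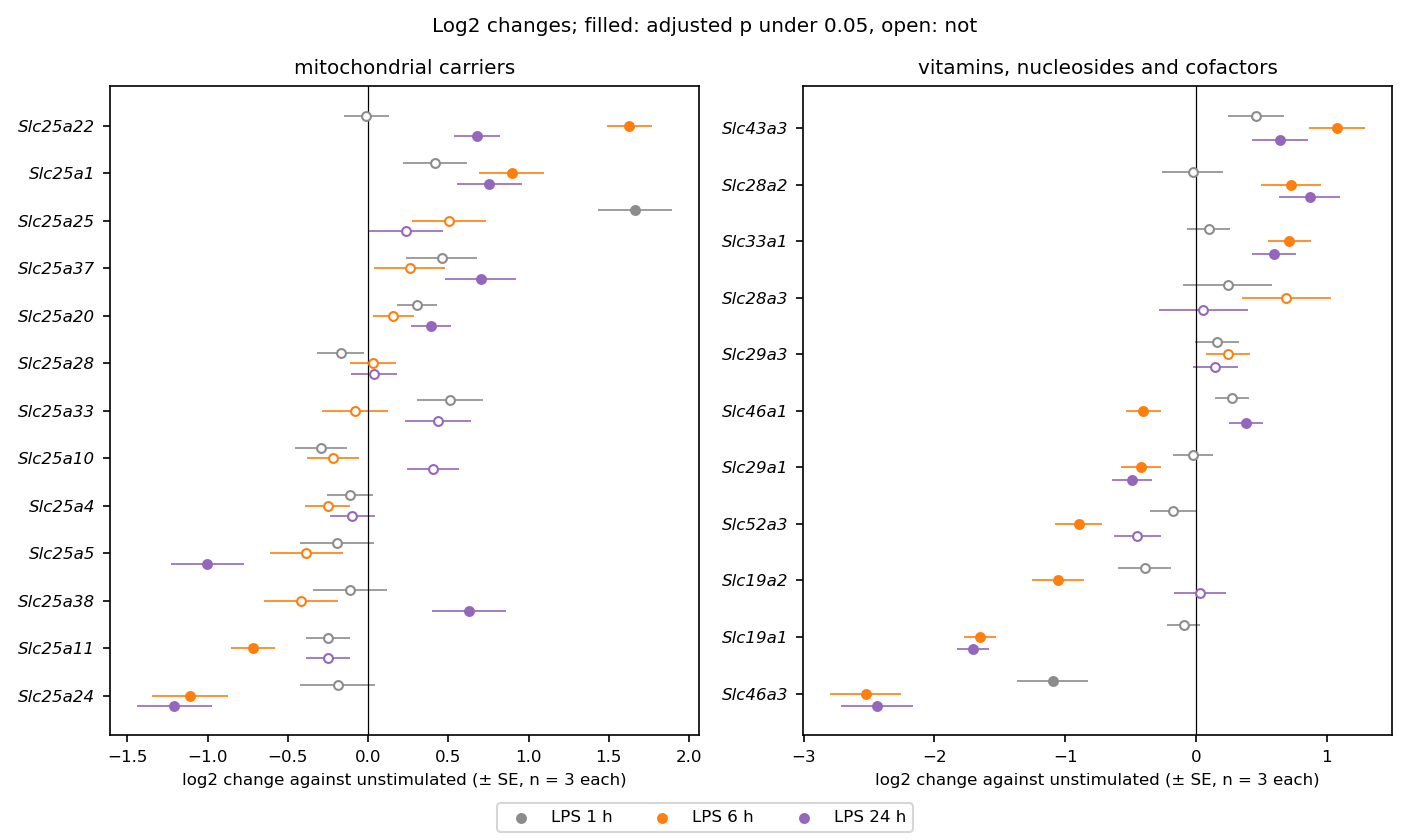
Log2 change against unstimulated cells with its SE (horizontal axis) for the named mitochondrial carriers (left) and carriers of vitamins, nucleosides and cofactors (right), with 1 h in grey, 6 h in orange and 24 h in purple, and filled points for adjusted p under 0.05. Slc25a22 is the furthest to the right at 6 h, Slc25a25 at 1 h, and Slc46a3 and Slc19a1 are the furthest to the left at 6 and 24 h in the right panel.

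Nucleotide sugar carriers of the Golgi and endoplasmic reticulum, which supply glycosylation, had more members lower than higher at 6 and 24 h, as had all genes tested. The median log2 change of the 18 members was -0.28 at 6 h. Of these members, 1 (5.56%) rose and 7 (38.9%) fell at 6 h, beside 16.1% and 23.6% of all genes. At 24 h, beside 18% and 21.5% of all genes, 1 (5.56%) rose and 5 (27.8%) fell. In the fit with slide 0 rose and 4 fell at 6 h, and with median centring 1 rose and 2 fell. Slc35c2, which acts in the fucosylation of Notch in the Golgi, had log2 ratios of 0.94, 0.83 and 0.66 in unstimulated cells, 0.42, 0.58 and 0.53 at 1 h, -1.29, -1.29 and -0.64 at 6 h and 0.03, -0.47 and -0.31 at 24 h. All arrays of 6 h lay below all others, those of 24 h came next, and it fell 3.69-fold at 6 h (log2 -1.88 ± 0.18, adjusted p = 6.94e-06) and 2.08-fold at 24 h (-1.06 ± 0.18, adjusted p = 0.000571). The GDP-fucose carrier Slc35c1 had log2 ratios of 0.93, 1.11 and 0.90 in unstimulated cells, 0.33, 0.32 and 0.43 at 1 h, -0.52, -0.39 and 0.17 at 6 h and 0.66, -0.05 and 0.31 at 24 h. It fell 2.34-fold at 6 h (-1.23 ± 0.19, adjusted p = 0.000325) and 1.6-fold at 24 h (-0.68 ± 0.19, adjusted p = 0.0143), and both fucose pathway genes kept their calls with slide as a block. The CMP-sialic acid carrier Slc35a1 changed by -0.29 ± 0.10 at 6 h (adjusted p = 0.0417, and 0.522 with slide as a block). With donor as a block its adjusted p rounded to 0.05 and the call was kept. Slc35g1 was 2.96-fold lower at 6 h (adjusted p = 0.000229) and 2.54-fold lower at 24 h (adjusted p = 0.000673).

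Of 11 carriers of sugars and sugar phosphates, 1 (9.09%) rose and 5 (45.5%) fell at 6 h, beside 16.1% and 23.6% of all genes. At 24 h, beside 18% and 21.5% of all genes, 2 (18.2%) rose and 2 (18.2%) fell. With median centring 1 rose and 2 fell at 6 h, and 0 rose and 2 fell at 24 h. Slc37a4, which brings glucose 6-phosphate into the endoplasmic reticulum, fell 2.35-fold at 6 h (log2 -1.23 ± 0.18, adjusted p = 0.000211) and was 1.74-fold higher at 24 h than at 6 h (adjusted p = 0.00999). Slc37a2, a sugar phosphate exchanger known from macrophages, had log2 ratios of 1.19, 0.84 and 1.16 in unstimulated cells, 1.48, 1.28 and 1.15 at 1 h, 0.41, 0.27 and 0.30 at 6 h and 1.73, 1.27 and 1.92 at 24 h. The 3 arrays of 6 h were the lowest of the 12. It fell 1.66-fold at 6 h (adjusted p = 0.00367) and rose 1.49-fold at 24 h (adjusted p = 0.0143) against unstimulated cells, with adjusted p = 0.183 and 0.133 with slide as a block. A second, dimmer probe gave -0.10 at 24 h. The intracellular glucose carrier Slc2a8 fell at 6 h (-0.49 ± 0.14, adjusted p = 0.0138, and 0.151 in the slide-blocked fit), and its second probe gave 0.15.

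Carriers of inorganic ions and of pH had 7 of 31 members (22.6%) higher and 6 (19.4%) lower at 6 h. Of all genes 16.1% and 23.6% were higher and lower there. At 24 h, beside 18% and 21.5% of all genes, 5 (16.1%) were higher and 4 (12.9%) lower. With median centring 3 were higher and 3 lower at 6 h, and 1 higher and 2 lower at 24 h. Slc9a3r1, whose product NHERF1 is a scaffold that binds carriers and is not a carrier itself, rose 2.13-fold at 6 h and 2.05-fold at 24 h (adjusted p = 0.00017 and 0.000251). Slc12a7, a potassium-chloride cotransporter, had log2 ratios of 0.48, 0.30 and 0.65 in unstimulated cells, 0.53, 0.69 and 0.29 at 1 h, -0.50, -0.59 and -0.25 at 6 h and 1.20, 1.05 and 1.15 at 24 h. Its 6 h arrays were the 3 lowest and its 24 h arrays the 3 highest of the 12. It fell 1.9-fold at 6 h (log2 -0.92 ± 0.14, adjusted p = 0.000246) and rose 1.58-fold at 24 h (0.66 ± 0.14, adjusted p = 0.00257, and 0.174 with slide as a block).

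Slc26a11, which carries sulphate and chloride and had fallen by 0.57 on the log2 scale at 1 h, had log2 ratios of -0.21, 0.05 and 0.20 in unstimulated cells, -0.45, -0.65 and -0.57 at 1 h, -1.97, -1.46 and -1.88 at 6 h and -0.69, -0.81 and -0.81 at 24 h. It was 3.45-fold lower at 6 h (log2 -1.79 ± 0.15, adjusted p = 2.24e-06) and 1.72-fold lower at 24 h (-0.79 ± 0.15, adjusted p = 0.00116, and 0.237 with slide as a block), with 24 h 2-fold above 6 h (adjusted p = 0.000787). The sodium-bicarbonate cotransporter Slc4a7, the cotransporter Slc12a2 and the sodium-calcium exchanger Slc8a1 passed in none of the comparisons.

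Among 15 carriers of amines, neurotransmitters and vesicles, 4 (26.7%) rose and 2 (13.3%) fell at 6 h, beside 16.1% and 23.6% of all genes. At 24 h, beside 18% and 21.5% of all genes, 3 (20%) rose and 1 (6.67%) fell. Slc32a1, which loads GABA and glycine into synaptic vesicles in neurons, had log2 ratios of 0.48, 0.49 and 0.56 in unstimulated cells, 0.42, 0.61 and 0.58 at 1 h, 1.71, 2.11 and 1.72 at 6 h and 2.44, 2.27 and 2.89 at 24 h. The arrays of 6 h all lay above those of 0 and 1 h, and those of 24 h above those of 6 h. It rose 2.52-fold at 6 h (log2 1.34 ± 0.16, adjusted p = 4.29e-05) and 4.06-fold at 24 h (2.02 ± 0.16, adjusted p = 2.41e-06), and with slide as a block by 1.05 and 1.82 on the log2 scale. Slc6a12, the betaine and GABA carrier that cells use for osmotic balance, had log2 ratios of 1.71, 1.63 and 1.65 in unstimulated cells, 2.15, 1.98 and 2.00 at 1 h, 3.05, 3.13 and 2.96 at 6 h and 3.18, 3.34 and 2.99 at 24 h. It rose 2.61-fold at 6 h (1.38 ± 0.12, adjusted p = 2.29e-06) and 2.85-fold at 24 h (1.51 ± 0.12, adjusted p = 1.93e-06), with slide-blocked changes of 1.62 and 1.79. The taurine carrier Slc6a6 rose at 6 h (0.73 ± 0.15, adjusted p = 0.00191), and the glycine carrier Slc6a9 at 24 h (1.03 ± 0.33, adjusted p = 0.0259, and 0.0744 with slide as a block). Slc18a1, the vesicular monoamine carrier, had log2 ratios of 3.77, 3.86 and 3.35 in unstimulated cells, 2.99, 2.39 and 3.40 at 1 h, 1.68, 0.98 and 2.37 at 6 h and 3.44, 1.44 and 2.39 at 24 h, with the widest spread at 24 h. It fell 3.96-fold at 6 h (-1.99 ± 0.45, adjusted p = 0.00353) and 2.36-fold at 24 h (-1.24 ± 0.45, adjusted p = 0.0433), where the call was lost without any one of the unstimulated arrays or without donor B or C of 24 h.

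The 3 peptide carriers of family 15 bring histidine and bacterial muramyl peptides out of endolysosomes or into the cell. Slc15a3 had log2 ratios of 2.46, 2.36 and 2.42 in unstimulated cells, 2.89, 2.89 and 2.86 at 1 h, 3.37, 3.44 and 3.14 at 6 h and 2.88, 3.27 and 3.47 at 24 h. Every array with LPS was above every unstimulated array, and it rose 1.87-fold at 6 h (log2 0.91 ± 0.14, adjusted p = 0.000332) and 1.73-fold at 24 h (0.79 ± 0.14, adjusted p = 0.000872, and 0.0518 with slide as a block). Slc15a4, its relative in the same compartment that Tlr7 and Tlr9 signalling needs, changed by -0.47 ± 0.21 at 6 h (adjusted p = 0.104, and 0.0275 with donor as a block) and by 0.06 ± 0.21 at 24 h (adjusted p = 0.846). Slc15a2, of the cell surface, passed in none of the comparisons. Beside 16.1% and 23.6% of all genes, 0 of 5 carboxylate carriers rose and 2 (40%) fell at 6 h. Among them was Slc16a7, the monocarboxylate carrier MCT2, which was not well above background at 6 h. Its Cy5 signal was at least 1.58-fold lower there than in unstimulated cells, and its log2 ratio changed by -0.60 ± 0.12 (adjusted p = 0.00186).

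Between 6 h and 1 h, 70 of 212 members (33%) differed, 23 higher and 47 lower at 6 h, against 28.2% of all genes tested, of which 12% were higher and 16.2% lower. With median centring 22 were higher and 13 lower, beside 10.9% and 2.22% of all genes, and the median of all genes was 0.13. With loess the median log2 change was -0.17 for the members and -0.09 for all genes. This comparison has both groups on slide 3, and with slide as a block 58 of the 70 calls remained. The count was 42 without the 6 h array of donor A and 46 without that of donor B. Between 24 h and 6 h, 40 members (18.9%) differed, 28 higher and 12 lower at 24 h, against 18.4% of all genes, of which 9.67% were higher and 8.77% lower. With median centring 4 were higher and 8 lower, beside 0.867% and 7.5% of all genes, and the median of all genes was -0.18, beside 0.04 with loess. With slide as a block 18 were higher and 2 lower, beside 3.83% and 4% of all genes. The count was 23 without the 6 h array of donor A and 26 without that of donor B. At least 2-fold and past the test, 9 members were higher at 24 h and 0 lower, beside 1.56% and 2.27% of all genes, and the largest were Slc7a4, Slco4a1, Slc12a7, Slc11a1, Slc22a4 and Slc37a2, at log2 changes of 1.74 ± 0.24, 1.64 ± 0.36, 1.58 ± 0.14, 1.57 ± 0.30, 1.46 ± 0.22 and 1.31 ± 0.17 (adjusted p = 0.000538, 0.00845, 4.08e-05, 0.0034, 0.000771 and 0.000269). Of the members named above, Slc25a22 had the largest fall between 6 and 24 h.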

How the data were processed

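Messenger RNA of 12 samples was measured on 2-colour Agilent arrays. The deposited scanner files, written by Feature Extraction 10.7.3.1 per the file headers, hold median pixel intensity values of spot and local background in both channels, not normalized. The deposited value table holds log2 ratios that, per the submitters' processing notes, were made with limma, and they correlated at 0.999 or more with the ratios computed here, with column medians of 0.0051 to 0.0098. The submitters' genome build and limma version are not given here. Median in place of mean signals were used, since the files hold medians.

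Signals were background-corrected in R 4.3.3 with limma 3.58.1 (normexp, offset 50, with local backgrounds marked as outliers set to the array's median) and normalized within arrays by loess (span 0.3, 1639 control spots at weight 0). Between 92 and 161 feature outlier spots per array were left out, and no spot was saturated. From 48.2 to 57.6% of probes were above background in Cy5. Of 41174 probes, 22951 matched a symbol through their RefSeq accession. The brightest probe of a gene was used, and 11077 genes passed the filter. A linear model with 1 mean per group over 12 arrays (8 residual degrees of freedom), empirical Bayes and two-sided tests with Benjamini-Hochberg adjustment over all 11077 genes gave the adjusted p values, and genes under 0.05 were called. The number of arrays limits the precision. Of the members, 54 had more than 1 probe, with 0 called in opposite directions. A bound, on the Cy5 signal after scaling between arrays, sets the mean of the bright group against the higher of the dim probe's own signal and the lowest signal well above background. The fit was also run on simulated data with independent noise and no slide or donor effect. That run therefore does not bear on differences between slides.

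The members, substrate classes, marker lists and named genes were chosen with earlier results of these data known, and the class patterns were corrected once after the files were read. Named were a list of 78 carriers, the 10 largest rises and 10 largest falls against unstimulated cells at each time, the 5 largest of each between successive times, the largest call of each class, and the 5 highest and 5 lowest in unstimulated cells. Carriers outside this rule were named only as Slc26a4 and Slc29a4 at the filter. Results of 2 named carriers are not reported here, while the counts include them.

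Donor letters come from the labels, which do not state if one letter means one animal across groups. Arrays of the same letter correlated in their deviations from group means at a median r of 0.109 (-0.211 to 0.584, 18 pairs), and those of different letters at -0.013 (-0.529 to 0.406, 36 pairs). The labels call the samples of each group biological replicates. They do not say whether these came from separate cultures, so p values measure only the spread between these samples. Alternatives were donor and slide as blocks (slide block with 5 residual degrees of freedom), other background corrections and normalizations, the Cy5 channel alone, the submitters' ratios, other probe filters and leaving out each array.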

Additional observations from a re-analysis of the deposited data

Results flagged for a closer look

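The change from unstimulated cells had opposite signs at different times for 5 carriers, with both changes called and the difference between the times called as well. Slco3a1 was lower at 1 h and higher at 6 h (log2 changes of -0.94 and 2.71), and the difference between 6 h and 1 h was 3.65 (adjusted p = 7.16e-07). For Slc12a7 the changes were -0.92 at 6 h and 0.66 at 24 h, a difference of 1.58 between 24 h and 6 h (adjusted p = 4.08e-05). For Slc7a4 they were -1.02 and 0.72, a difference of 1.74 (adjusted p = 0.000538), and for Slc37a2 -0.73 and 0.58, a difference of 1.31 (adjusted p = 0.000269). Slc46a1 had -0.40 and 0.38, a difference of 0.78 (adjusted p = 0.00177). With slide as a block none of the 5 kept both calls: the change that ended was that of Slco3a1 at 1 h (adjusted p = 0.173), of Slc12a7 and Slc7a4 at 24 h (0.174 and 0.183), of Slc37a2 at 6 and 24 h (0.183 and 0.133) and of Slc46a1 at 24 h (-0.06, adjusted p = 0.882). The groups of 3 arrays were too small for a test of outlying arrays, but each array was left out in turn. The 1 h fall of Slco3a1 was among the calls that this ended.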

How the results depend on the processing

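The counts of carriers called moved by more than 1.5 times with background correction and normalization in all 5 comparisons, with slide in 4, and with single arrays left out in 3. With normexp on local backgrounds as deposited, which gave unusable values for donor B at 6 h, 2 carriers were called at 1 h (2 higher), 52 at 6 h (15 higher, 37 lower), 44 at 24 h (20 and 24), 29 between 6 h and 1 h (8 and 21) and 13 between 24 h and 6 h (13 and 0). With median centring in place of loess these were 2, 38, 36, 35 and 12. With slide as a block they were 3 at 1 h, 43 at 6 h, 31 at 24 h and 20 between 24 h and 6 h, on 5 residual degrees of freedom. The block of donor letter, which pairs arrays of one letter, gave 13 at 1 h. Elsewhere it moved no count by more than 1.5 times, and of the 128 called values of named genes 1 was lost with it. Leaving out each array in turn gave 2 to 11 calls at 1 h, 68 to 92 at 6 h, 51 to 80 at 24 h, 42 to 73 between 6 h and 1 h and 23 to 47 between 24 h and 6 h. Of the 128 called values, 53 were called under every setting with a test, and 31 of the 164 others were called under some setting. Signs turned for Slc15a3 between 6 h and 1 h with backgrounds as deposited (-0.0845), for Slc25a37 at 24 h with slide as a block (-0.0542), and for Slc46a1 at 24 h with slide as a block (-0.0637) and within slides (-0.0623). The cause was not tested. The scanner's processed signals, the Cy5 channel alone, the submitters' ratios, other probe filters and the mean over probes moved none of the 5 counts by more than 1.5 times. A dim probe has only a bound, and the sample channel's median signal above background was 24 to 44 units across arrays.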
